A study of Mus musculus with 24 samples.

Results

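Cholesterol synthesis genes were followed in the hippocampus of Aged mice through 7 transcripts, 5 of which encode enzymes of the pathway (Hmgcs1, Idi1, Fdft1, Sqle and Lss), 1 its feedback inhibitor (Insig1) and 1 its transcription factor (Srebf2). The 7 genes were taken by symbol from the 49568 gene symbols in the count table of each of 24 mice. Libraries of poly(A) RNA came from 1 hippocampus each of male mice aged 21 to 23 months in 4 groups of 6, namely WT mice in standard housing (WTSH), WT mice in enriched housing (WTEE), MSK1 KD mice in standard housing (KDSH) and MSK1 KD mice in enriched housing (KDEE). Enriched mice had been moved at 18 months into larger cages with a running wheel and toys, and both genotypes were kept as separate homozygous lines on a C57Bl/6J background. The labels do not say which mice shared a cage. MSK1 is a kinase that acts on chromatin and the transcription factor CREB, and MSK1 KD mice carry in every cell a point mutation of its gene that makes the protein unable to act on its targets. The mutation leaves the transcript in place, so the counts of the MSK1 gene, Rps6ka5, which ranged from 13.8 to 25.2 CPM (counts per 1000000 counts on genes) over the mice used, do not check the genotype.

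Cells build cholesterol from acetyl-CoA through mevalonate, isoprenoids and squalene to lanosterol, and most of the cholesterol of the brain is made there, since the blood-brain barrier keeps lipoprotein cholesterol out. When sterols in the endoplasmic reticulum are low, SCAP carries SREBP2 to the Golgi apparatus, where proteases release the factor that switches on the genes of the pathway. When sterols are high, the INSIG proteins hold SCAP and SREBP2 back in the endoplasmic reticulum, and INSIG1 is itself a target of the factor.

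The enzymes come in the order Hmgcs1, Idi1, Fdft1, Sqle and Lss along the pathway. Hmgcs1 (chr13:119690379-119708260, plus strand of GRCm38) encodes the cytosolic HMG-CoA synthase, which acts early in the pathway. Idi1 (chr13:8885501-8892451, plus strand) encodes isopentenyl-diphosphate isomerase, which makes the building blocks of isoprenoids. Fdft1 (chr14:63145150-63179578, minus strand) encodes squalene synthase, the step that commits carbon to sterols. Sqle (chr15:59315077-59331192, plus strand) encodes squalene epoxidase, an oxygen-dependent control point of the pathway, and Lss (chr10:76531588-76557138, plus strand) encodes lanosterol synthase, which closes the sterol rings. Insig1 lies at chr5:28071363-28078662 and Srebf2, which encodes SREBP2, at chr15:82147181-82205379, both on the plus strand. Counting did not use strand. Exons of Fdft1 share 774 bases with Ctsb, which encodes the protease cathepsin B on the opposite strand, and exons of Lss share 381 bases with the antisense gene 4930483K19Rik, so that reads from these stretches could not be given to 1 gene of the pair.

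SREBP2 binds sterol regulatory elements, usually beside sites of NF-Y and Sp1, and the stretch before the start of Hmgcs1 is shown because it was the only one of the stretches searched that held the core of such an element. Promoter windows of RefSeq (GRCm38.p6, 250 bases before the start and 50 after it) were matched for 5 of the 7 genes, namely Hmgcs1, Idi1, Lss, Insig1 and Srebf2. The windows were searched on both strands for TCACNCCAC (sterol regulatory element core), CCAAT (NF-Y) and GGGCGG (Sp1). The bases before the start of Hmgcs1 (chr13:119690101-119690350, plus strand) and of Insig1 (chr5:28071162-28071362, plus strand), the second shown as one without the element core, are printed with the matches in capitals.
Hmgcs1: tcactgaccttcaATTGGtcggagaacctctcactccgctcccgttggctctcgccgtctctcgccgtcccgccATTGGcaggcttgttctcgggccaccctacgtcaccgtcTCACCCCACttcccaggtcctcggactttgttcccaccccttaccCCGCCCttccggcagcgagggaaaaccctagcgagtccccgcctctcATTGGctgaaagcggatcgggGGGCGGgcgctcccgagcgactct
Insig1: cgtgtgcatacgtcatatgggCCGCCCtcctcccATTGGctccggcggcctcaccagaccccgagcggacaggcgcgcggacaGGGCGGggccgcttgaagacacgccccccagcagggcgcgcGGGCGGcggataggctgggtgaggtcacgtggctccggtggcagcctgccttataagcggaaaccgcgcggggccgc
In the Hmgcs1 window the element core matched at position -137 relative to the start (TCACCCCAC, on the strand of the gene). The core occurred in 1 of the 5 windows and in 1.24% of the 32851 windows of the RefSeq table. A CCAAT match stood in 5 of the 5 windows, against 37.4% of all windows, and a GGGCGG match in 5 of the 5, against 35.7%. These are matches of letters within 300 bases and were not tested as sites of binding.

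The study set aside the libraries of WTSH 4, WTSH 7 and KDSH 6 for ribosomal RNA contamination or a low correlation with their group, so the groups held 4, 6, 5 and 6 mice, and these 3 libraries are described separately at the end. Counts on genes in the 21 libraries used ranged from 27410239 (KDEE 22) to 71907130, with a median of 47549989. Structural RNA genes took from 0.0349% to 2.49% of them. Markers of neurons, hippocampal fields, astrocytes, oligodendrocytes, microglia and endothelium were detected in every library, and summed choroid plexus markers ranged from 26.4 to 9739 CPM. The library of WTEE 10 stood apart. It was outside the range of the other 20 libraries for 56.1% of the 20187 genes tested, against a median of 5.96% over the libraries and 16.4% in the next one, and its share of read pairs that fell on more than 1 gene, 6.57%, was the highest of the 21. Many results that rest on it are given with and without it, and others only with it.

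All 7 genes were well detected and steady between mice. Levels are CPM scaled between libraries by the trimmed mean of M values (TMM) and are given as mean ± SD. Over the 21 mice, CPM averaged 235 ± 16.8 for Hmgcs1, 14.8 ± 1.64 for Idi1, 97.8 ± 12.02 for Fdft1, 68.1 ± 5.41 for Sqle, 40.05 ± 5.17 for Lss, 69.9 ± 8.49 for Insig1 and 268 ± 17.4 for Srebf2. The mouse with the highest level exceeded the one with the lowest by between 1.30-fold for Hmgcs1 and 2.05-fold for Lss. The Lss value rested on WTEE 10, at 23.7 CPM against 35.7 to 48.8 CPM in the other 20 mice. For Insig1, where WTEE 10 was within the range of the others, it was 1.70-fold. The variation between mice of a group beyond counting error, edgeR's biological coefficient of variation, was lowest for Srebf2 (8.23%) and highest for Lss (13.8%), and lay below the median of all tested genes (14.01%) for each of the 7. Lss stood close to that median, at percentile 49.0. By level the members stood between percentiles 54.8 (Idi1) and 97.0 (Srebf2), and no median was taken over genes of similar level. These coefficients and the SDs above include WTEE 10.

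Levels of different genes were compared only per kilobase of exon, the length being that of all annotated exons of a gene together. This length, from 3093 bases for Insig1 to 10787 for Lss, can exceed that of the transcripts present, so the order also depends on the annotation. On this scale the median was highest for Hmgcs1 (51.3 CPM per kb, range 44.5 to 58.0) and next for Srebf2 (37.7, range 29.2 to 41.1), and these ranges did not overlap. Fdft1 (22.7, range 20.1 to 34.5) and Insig1 (22.7, range 16.5 to 28.04) came next and overlapped each other, and Fdft1 reached into the range of Srebf2 through WTEE 10. Sqle followed with 12.3 CPM per kb (range 10.95 to 14.5) and was apart from its neighbours. Idi1 (4.27, range 2.97 to 5.20) and Lss (3.77, range 2.20 to 4.52) were lowest and overlapped.

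**Figure D1:**
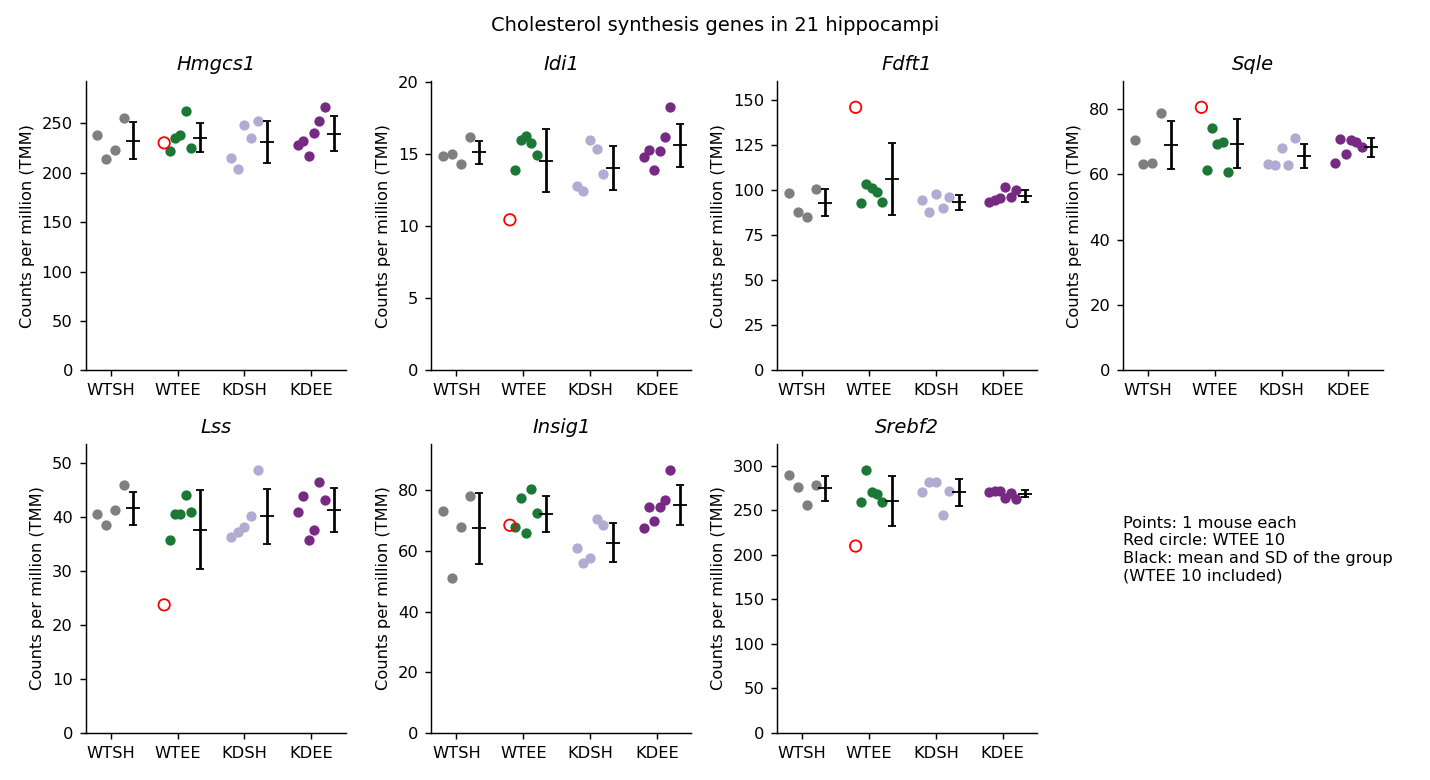
Level of each gene in 21 hippocampi, in CPM (TMM-scaled, vertical axis from 0), by group, 1 point per mouse, with the group mean and SD in black. The groups overlap for all 7 genes, and WTEE 10 (red circle) is below every other mouse for Idi1 (10.4), Lss (23.7) and Srebf2 (210) and above every other mouse for Fdft1 (146) and Sqle (80.5).

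WTEE 10 was outside the range of the other 20 mice for 5 of the 7 genes, and in opposite directions within the pathway. Fdft1 stood at 146 CPM in this mouse against 85.0 to 103 CPM in the others, and Sqle at 80.5 against 60.7 to 78.7 CPM. Lss stood at 23.7 CPM against 35.7 to 48.8 CPM, Idi1 at 10.4 against 12.4 to 18.2 CPM and Srebf2 at 210 against 245 to 295 CPM. Hmgcs1 (230 CPM) and Insig1 (68.5 CPM) lay within the range of the other mice. Ctsb, whose exons overlap those of Fdft1, was also highest in WTEE 10, at 753 against 547 to 681 CPM. The part of this overlap in the Fdft1 value was not tested.

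Housing and genotype were compared to ask whether experience or MSK1 kinase activity goes with the level of the pathway in old age. The 4 groups were fitted in 1 model with edgeR's quasi-likelihood test, and a call needed both an adjusted p (Benjamini-Hochberg) under 0.05 over all 20187 genes tested and an absolute log2 fold change over 0.38. None of the 7 genes was called in any of the 7 contrasts, by edgeR or by the Wald test of DESeq2, and 2 of the 49 edgeR values had an unadjusted p under 0.05. The largest estimated difference of a member was 0.26 on the log2 scale, and the smallest adjusted p was 0.230. Among all genes, edgeR called 0% in WTEE against WTSH, 0% in KDEE against KDSH, 0% in KDSH against WTSH and 0% in WTEE against KDEE. In the same order DESeq2 called 2, 14, 0 and 118 of the 49568 gene symbols. In edgeR the contrast of enriched against standard housing over both genotypes called 0.00495% of all genes, which is 1 gene, and the other contrasts called 0%. DESeq2 called 41 in that contrast, 20 in the difference between the enrichment effects and 0 in MSK1 KD against WT over both housings. In a bulk sample, fewer cells of a type and less RNA per cell cannot be told apart.

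In WT mice, enrichment went with log2 fold changes between -0.15 (Lss) and 0.19 (Fdft1), 4 of the 7 being positive, with a median of 0.01 beside 0.01 over all genes. Fdft1 was at 98.4, 87.9, 85.0 and 101 CPM in the WTSH mice 2, 5, 19 and 23. In the WTEE mice its lowest, median and highest levels were 92.9, 99.8 and 146 CPM, so that the groups overlapped and the highest value was that of WTEE 10. The Fdft1 difference was 0.19 (SE 0.09, edgeR adjusted p = 0.651), and it fell to 0.08 (SE 0.05, edgeR adjusted p = 0.9995) without WTEE 10. Lss, the gene at the other end of the range, went from -0.15 to -0.04 without that mouse. No member had an unadjusted edgeR p under 0.05 in this contrast, against 6.55% of all genes, and no member had groups that did not overlap, against 0.986% of all genes.

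In MSK1 KD mice, Insig1 had the largest difference of the 7 genes, with higher levels under enrichment, and the other members differed by between -0.01 (Srebf2) and 0.15 (Idi1). Insig1 was at 61.0, 56.0, 57.8, 70.5 and 68.6 CPM in the KDSH mice 1, 3, 8, 18 and 24. In the KDEE mice its lowest, median and highest levels were 67.6, 74.5 and 86.7 CPM. The groups overlapped, since KDSH 18 and 24 exceeded the lowest KDEE mouse. The log2 fold change was 0.26 (95% interval 0.06 to 0.45, SE 0.09), a fold of 1.20, with an exact permutation p of 0.0152 and an edgeR adjusted p of 0.376, so it did not pass the test over all genes. Its adjusted p ranged from 0.131 to 0.617 over the alternatives, and its difference from 0.21 to 0.30. One member of 7 (Insig1) had an unadjusted p under 0.05 here, where 11.6% of all genes had one, and none had groups that did not overlap, against 1.84% of all genes. Some sets of markers also differed between these groups, with ranges that overlapped. Summed choroid plexus markers (7 of 7 detected) ranged from 26.4 to 107 CPM in KDSH and from 87.3 to 9739 CPM in KDEE, with medians of 42.0 and 115. Blood markers ranged from 37.0 to 77.5 and from 72.6 to 242 CPM (medians 50.4 and 123), and oligodendrocyte markers from 5382 to 7740 and from 6462 to 8171 CPM. Pituitary markers reached higher in KDSH, from 0.832 to 241 CPM, than in KDEE, from 1.24 to 2.08 CPM (medians 1.52 and 1.49). Markers of oligodendrocyte precursors (2 of 2 detected) ranged from 87.7 to 92.7 CPM in KDSH and from 92.5 to 107 CPM in KDEE. The part of these cells in the Insig1 difference was not tested.

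Insig1 was also the member with the smallest adjusted p over both genotypes. The mean difference between enriched and standard housing was 0.18 on the log2 scale (95% interval 0.03 to 0.32, SE 0.07), with an exact permutation p of 0.0187, labels being exchanged within genotype, and an edgeR adjusted p of 0.230, against a range of 0.0864 to 0.516 over the alternatives. Of all genes, 18.9% had an unadjusted p under 0.05 in this contrast, as did 1 of the 7 members. In WT mice alone Insig1 stood at 73.1, 51.1, 67.9 and 78.1 CPM in WTSH 2, 5, 19 and 23, and between 65.8 and 80.6 CPM in WTEE with a median of 70.5. The lowest WTSH mouse was below all WTEE mice and the others were within their range, and the difference of 0.09 (95% interval -0.11 to 0.30) left room for a change in either direction. It rested on WTSH 5, without which it was -0.02. The interaction, that is the log2 fold change with enrichment in WT minus that in MSK1 KD mice, was -0.16 for Insig1 (95% interval -0.44 to 0.12, edgeR adjusted p = 0.9999). Without WTSH 5 it was -0.28 and without WTSH 23 it was -0.09. For the other members this interaction ranged from -0.21 (Idi1) to 0.13 (Fdft1), and these values were -0.13 and 0.02 without WTEE 10, with none of the 7 below an unadjusted p of 0.05, against 3.26% of all genes. The 2 contrasts with Insig1 share KDSH and KDEE mice, and they were 2 of 42 exact tests run on the 7 genes, the only ones with p under 0.05.

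No member was called between genotypes. Between KDSH and WTSH the members differed by between -0.11 (Idi1) and 0.00 (Fdft1) on the log2 scale, 6 of the 7 being negative, with 95% intervals that together ran from -0.34 to 0.22. Insig1, at -0.11, depended on single mice, and leaving out 1 mouse moved it to between -0.22 (without WTSH 5) and -0.03 (without WTSH 23). Between WTEE and KDEE they differed by between -0.13 (Lss) and 0.13 (Fdft1), both of which moved towards 0 without WTEE 10. Over both housings the KD effect ranged from -0.06 (Fdft1) to 0.04 (Lss), and these values were -0.01 and -0.01 without WTEE 10. The share of all genes with an unadjusted p under 0.05 was 1%, 4.99% and 1.9% in these contrasts, where no member had one, and 0.644% and 0.624% of all genes had groups that did not overlap in the first pair of them, where no member did.

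**Figure D2:**
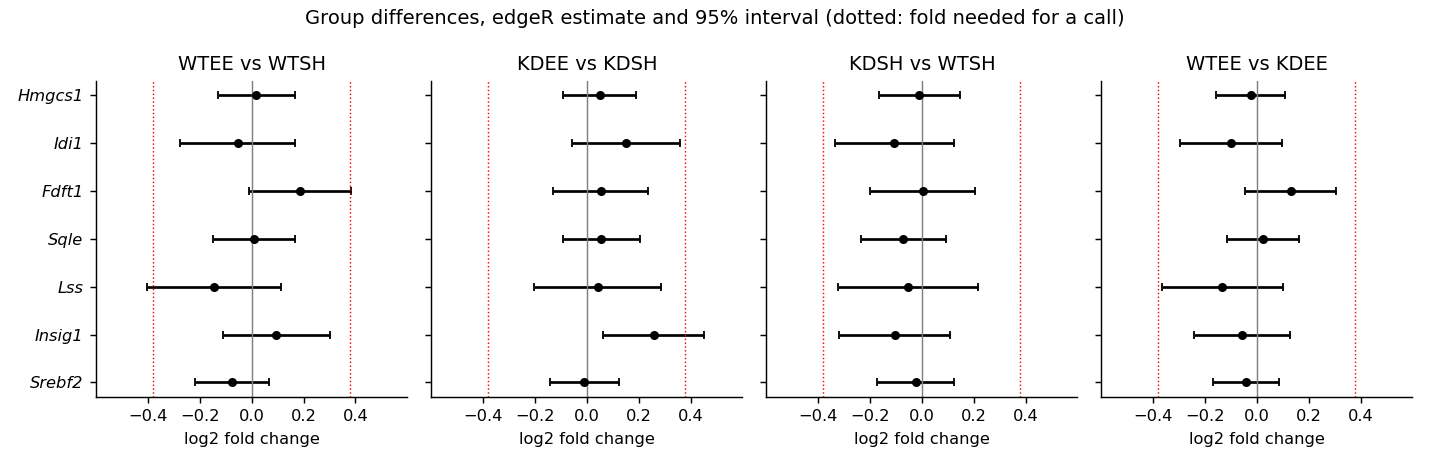
Log2 fold change of each gene in the 4 contrasts between groups, as the edgeR estimate (point) with its 95% interval (bar), the dotted lines marking the fold needed for a call. Of the 28 intervals, that of Insig1 in KDEE vs KDSH (0.06 to 0.45) is the one that excludes 0, and no estimate lies beyond a dotted line.

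Some of the 7 genes moved together between mice of the same group, and how many did so depended on single mice. For each of the 21 pairs of members, Pearson's r was computed over the 21 mice on log2 CPM (prior count 2) after the mean of each group had been removed, with p from 100000 permutations within groups and Benjamini-Hochberg adjustment over the 21 pairs. Of the 21 pairs, 15 had a positive r, the median was 0.38, and 6 pairs passed at an adjusted p under 0.05, all of them positive. An r over 0.5 was found in 8 of the 21 pairs, against 11% of all pairs of tested genes and 20.2% of pairs of genes with a mean level at or above that of the lowest member. Spearman's rho also passed in 6 pairs, 5 of them the same, with Hmgcs1 and Lss (r = 0.50, adjusted p = 0.0588, rho = 0.60, adjusted p = 0.0261) in place of Idi1 and Lss. The mice shared no known batch in the labels, which give neither a sequencing lane nor a date, so no value within batches could be had. The sample numbers in the labels followed housing in part. Numbers 1 to 8 were all in standard housing, 9 to 17 all in enriched housing and 18 to 24 in both. TMM factors were 1.011 to 1.031 in samples 18 to 24 and at most 1.003 in the other mice used. What this order stands for is not given, and its part in the housing differences and the covariation was not tested.

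The closest pair was Fdft1 and Sqle, the steps that make squalene and oxidise it, with r = 0.80 (permutation p = 3e-05, adjusted p = 0.00063, rho = 0.82 with adjusted p = 0.00168). It remained at r = 0.77 without the 2 mice farthest from the median of Fdft1 (WTEE 10 and 11), and it passed in each of the 21 fits that left out 1 mouse. Hmgcs1 and Insig1 had r = 0.71 (permutation p = 0.00088, adjusted p = 0.00924, rho = 0.74 with adjusted p = 0.009555), 0.65 without KDEE 22 and KDSH 3, and passed in 20 of the 21 fits, the exception being the one without KDEE 22 (adjusted p = 0.0531).

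Hmgcs1 and Idi1 had r = 0.59 (permutation p = 0.00663, adjusted p = 0.0384, rho = 0.69), and 0.50 without KDEE 22 and KDSH 3, and passed in 15 of the 21 fits. Hmgcs1 and Sqle had r = 0.56 (permutation p = 0.00914, adjusted p = 0.0384, rho = 0.59), and 0.60 without that pair of mice, and passed in 10. Idi1 and Lss had r = 0.76 (permutation p = 0.00847, adjusted p = 0.0384, rho = 0.56 with adjusted p = 0.0534), but 0.55 without KDEE 22 and WTEE 10, and passed in 13. Lss and Insig1 had r = 0.45 (permutation p = 0.0125, adjusted p = 0.0437, rho = 0.60), and 0.53 without KDSH 24 and WTEE 10, and passed in 7 of the 21 fits.

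The number of pairs that passed was between 1 and 10 when each of the 21 mice was left out in turn, and it was 1 without KDEE 22 and 2 without KDSH 1, KDSH 3, KDEE 14, WTSH 23 or WTEE 11. KDEE 22, the library with the lowest count, held the highest Hmgcs1 (266 CPM), Idi1 (18.2 CPM) and Insig1 (86.7 CPM) of the 21. Without WTEE 10, 10 pairs passed, 19 of the 21 had a positive r and the median r was 0.52. Of the 10 pairs of enzymes, 8 passed and all 10 were positive (r from 0.27 to 0.84), against 4 that passed and 6 that were positive (r from -0.60 to 0.80) with that mouse. The r of Fdft1 with Lss went from -0.60 to 0.27, that of Fdft1 with Idi1 from -0.45 to 0.52 (adjusted p = 0.0308), and that of Sqle with Lss from -0.10 to 0.55 (adjusted p = 0.0238). Idi1 and Lss, at 0.76 with WTEE 10, were at 0.45 without it (adjusted p = 0.135). Without WTEE 10, 12 of the 21 pairs had an r over 0.5, against 6.25% of all pairs and 11.8% of pairs at the level of the members.

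Insig1, the feedback inhibitor, was positively correlated with each of the 5 enzymes, at r from 0.14 (Fdft1) to 0.71 (Hmgcs1), and from 0.43 to 0.71 without WTEE 10, with 2 of the 5 pairs passing either way. Srebf2, the gene of the transcription factor itself, passed with none of the other 6 genes, with or without WTEE 10. Its r of 0.62 with Lss and 0.56 with Idi1 went to 0.01 and -0.01 without that mouse, and its r of -0.52 with Fdft1 went to 0.52. Hmgcs1 followed the mean of the other members most closely (r = 0.85, and 0.89 without WTEE 10). Fdft1 had r = -0.19 with that mean over the 21 mice and 0.71 without WTEE 10.

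**Figure D3:**
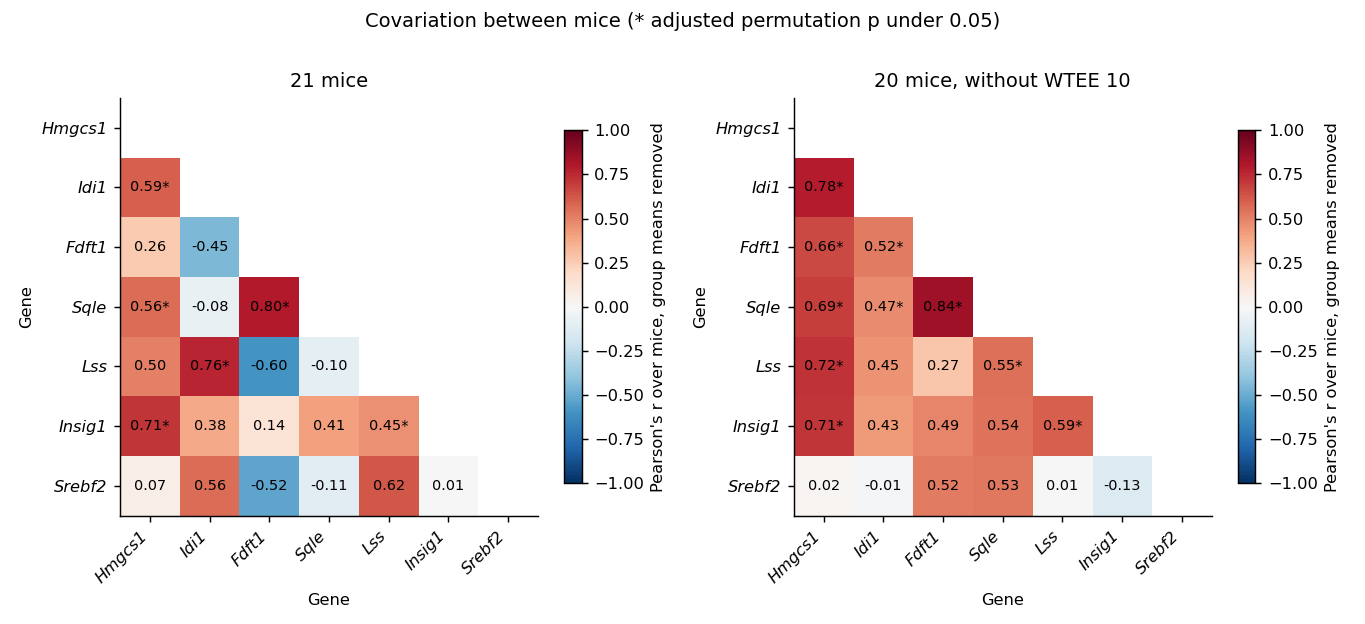
Pearson's r of each pair of genes over mice, group means removed, for 21 mice (left) and for the 20 without WTEE 10 (right), colour from -1 to 1, with a star where the adjusted permutation p was under 0.05. The left panel has 6 stars and negative values around Fdft1, and the right panel has 10 stars, all among the enzymes and Insig1.

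A score of the 7 genes was taken as the mean of their log2 CPM after the mean of each gene over the mice had been removed. It averaged 0.00 ± 0.11 in WTSH (n = 4), 0.00 ± 0.09 in WTEE (n = 6), -0.05 ± 0.08 in KDSH (n = 5) and 0.04 ± 0.07 in KDEE (n = 6). The means of KDSH and KDEE differed by slightly more than the SD of either group, and no other pair of means did. No test was run on the score. The mice with the highest score were WTSH 23 (0.14) and KDEE 22 (0.14), and those with the lowest were KDSH 3 (-0.15), WTEE 10 (-0.11) and WTSH 5 (-0.11). The ranges of the groups overlapped, at -0.11 to 0.14 in WTSH, -0.11 to 0.10 in WTEE, -0.15 to 0.05 in KDSH and -0.05 to 0.14 in KDEE.

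Among the other 20180 genes tested, those whose levels followed this score most closely were sought by Pearson's r over the 21 mice, group means removed. Stard4, a cholesterol transfer protein and target of SREBP2, was among the closest (r = 0.83, and 0.82 without WTEE 10). It was at 23.3 to 35.5 CPM in WTSH, 23.99 to 29.3 in WTEE, 22.5 to 30.8 in KDSH and 27.0 to 32.3 in KDEE, so the groups overlapped. Lgi2 (0.83), Ppl (0.81), Ttl (0.80), Sync (0.79), Nln (0.79), Adcy8 (0.79), Optn (0.78) and Zfp648 (0.78) were also among the 10 highest. At the other end stood Spink8 (-0.87), Gpc3 (-0.84), B4galt4 (-0.80), Inafm2 (-0.79) and Edn1 (-0.79). These correlations share libraries and scaling and are given as a description. Over all genes outside the members, 6.86% had an r over 0.5 and 4.44% an r under -0.5, and 5.24% and 3.73% without WTEE 10. With all 24 libraries the r of Stard4 was 0.82, that of Lgi2 0.74 and that of Spink8 -0.82.

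**Figure D4:**
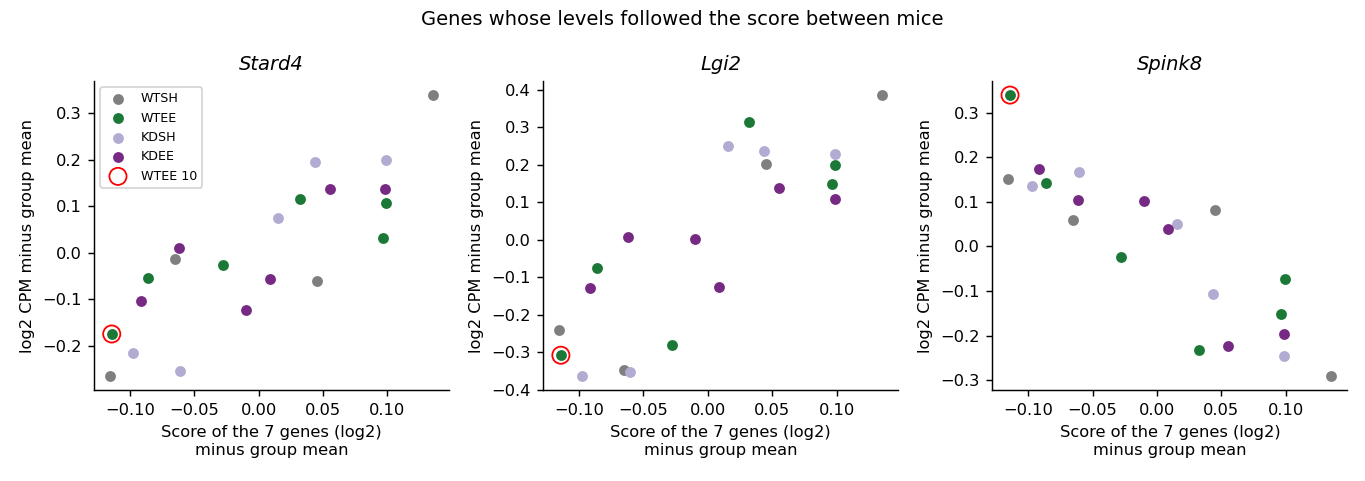
Log2 CPM of Stard4, Lgi2 and Spink8 (vertical axes) against the score of the 7 genes (horizontal axis), each minus its group mean, 1 point per mouse for 21 mice, with WTEE 10 circled. Mice of all 4 groups with a higher score have more Stard4 (r = 0.83) and Lgi2 (r = 0.83) and less Spink8 (r = -0.87).

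The 17 other enzymes were taken from a fixed list of cholesterol synthesis and the isoprenoid steps beside it, and all were tested. Their median r with the score was 0.24, beside 0.01 over all genes, with 13 positive and 4 of 17 over 0.5. Among the 4 were Hsd17b7 at 0.70 (0.67 without WTEE 10) and Ggps1, of the branch to other isoprenoids, at 0.50 (0.42 without WTEE 10). Without WTEE 10 the median was 0.42, beside 0.00 over all genes, and 7 of 17 were over 0.5. Acat2, the thiolase of the opening step, went from 0.20 to 0.73. None of the 17 was called in any contrast. In KDEE against KDSH 12 were higher and 5 lower, with a median log2 fold change of 0.03 beside 0.00 over all genes, and in KDSH against WTSH 5 were higher and 12 lower, with a median of -0.02 beside 0.00. In WTEE against WTSH 10 were higher and 7 lower, with a median of 0.03 beside 0.01.

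Of 11 genes of the SREBP machinery and of sterol uptake, 2 had an r over 0.5 with the score, among them Stard4, and Insig2, the other INSIG gene (-0.61), had one under -0.5. Stard4 and Insig2 kept to these sides without WTEE 10. The median r of the 11 was 0.28, and -0.07 without WTEE 10. None was called in any contrast. Srebf1, the gene of SREBP1, had the smallest unadjusted p of the list, with a log2 fold change of 0.38 in KDEE against KDSH (SE 0.11, edgeR adjusted p = 0.338), and its r with the score was -0.23. Npc2, a lysosomal cholesterol carrier, differed by 0.33 between enriched and standard housing (SE 0.12, edgeR adjusted p = 0.213).

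Of 9 genes of cholesterol efflux, esterification and turnover, none had an r over 0.5 or under -0.5 with the score, and the median was -0.06. Without WTEE 10 Abcg1, a sterol exporter, was at -0.51. None was called. Ch25h, cholesterol 25-hydroxylase, had the smallest unadjusted p of the list, with a log2 fold change of 1.31 in WTEE against WTSH (SE 0.42, edgeR adjusted p = 0.651) at a low level of 0.145 to 1.52 CPM. Apoe, the main apolipoprotein made by astrocytes, differed by 0.27 between enriched and standard housing (SE 0.10, edgeR adjusted p = 0.219).

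Summed markers of some cell types moved against the score, though the single markers did so to unlike extents. Summed microglial markers (Cx3cr1, P2ry12, Tmem119 and Csf1r, 4 of 4 detected in every library) had r = -0.65 with it, and -0.62 without WTEE 10, over a range of 225 to 282 CPM in WTSH, 236 to 268 in WTEE, 211 to 271 in KDSH and 238 to 294 in KDEE. Summed endothelial markers (Cldn5, Pecam1 and Flt1, 3 of 3) had r = -0.67, and -0.62 without WTEE 10, over 99.5 to 117, 99.5 to 142, 84.0 to 123 and 92.8 to 131 CPM in the same order. Singly, r was -0.15 for Cx3cr1, -0.59 for P2ry12, -0.73 for Tmem119 and -0.65 for Csf1r. It was -0.52 for Cldn5, -0.63 for Pecam1 and -0.23 for Flt1 (-0.61 without WTEE 10). Neuronal markers went from r = 0.22 to -0.21 without WTEE 10, and those of oligodendrocyte precursors from -0.09 to -0.68. Of the precursor markers, Cspg4 was at -0.65 and Pdgfra at -0.11 without WTEE 10. Within the neuronal list, Snap25 (r = 0.68, and 0.65 without WTEE 10) and Syt1 (0.55 and 0.47) were higher with the score, and Camk2a, the most abundant of the 6, went from 0.09 to -0.53. The rest of that list had r between -0.11 and 0.15, and between -0.26 and -0.18 without WTEE 10. Astrocytes had r = -0.14 (-0.30 without WTEE 10), oligodendrocytes -0.15 (-0.12), hippocampal fields -0.21 (-0.45), choroid plexus -0.28 (-0.16), blood -0.22 (-0.15) and the pituitary -0.04 (-0.09). The choroid plexus marker Kcnj13 and the pituitary markers Gh and Prl were at 0 in the lowest library. The share of structural RNA had r = -0.18 with the score, the count on genes -0.13 and the share of read pairs on more than 1 gene -0.29, and without WTEE 10 they were -0.13, -0.19 and -0.04. That last share had r = 0.76 with Fdft1, 0.40 with Sqle, -0.74 with Lss, -0.62 with Idi1 and -0.56 with Srebf2, and -0.10 with Hmgcs1 and -0.02 with Insig1. It was highest in WTEE 10, the mouse in which the first 5 of these genes lay outside the range of the others. These r of single genes were not computed without WTEE 10. The part of cell composition and of library quality in the covariation was not tested.

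The 3 libraries that the study left out held few counts on genes or much structural RNA, and on a scaling over all 24 libraries most of their values were within the range of the others. Their counts on genes were 15800187 (WTSH 4), 23318036 (WTSH 7) and 39585901 (KDSH 6), with 5.51% to 22.8% on structural RNA genes. Hmgcs1 was at 209, 216 and 207 CPM in WTSH 4, WTSH 7 and KDSH 6, within 198 to 260 CPM in the other 21. Fdft1 was at 81.0 and 80.3 CPM in WTSH 4 and 7, below the lowest of the other 21 (82.9 CPM), and at 104 CPM in KDSH 6, above the other KDSH mice (85.0 to 94.6 CPM). Insig1 was at 59.5, 46.6 and 52.2 CPM, and that of WTSH 7 was below the lowest of the others (49.7 CPM). Lss was at 39.99, 36.0 and 28.7 CPM, the last below the other KDSH mice (35.2 to 47.3 CPM). Idi1 (17.5, 12.9 and 13.3 CPM), Sqle (63.5, 60.9 and 60.9 CPM) and Srebf2 (240, 272 and 264 CPM) stayed within the range of the 21. The score on this scaling was -0.05 in WTSH 4, -0.16 in WTSH 7 and -0.14 in KDSH 6, against -0.15 to 0.14 in the 21, so that 0 of the 21 lay below WTSH 7 and 1 below KDSH 6. With all 24 libraries in the fit, Insig1 differed by 0.30 in KDEE against KDSH (edgeR adjusted p = 0.377) and by 0.24 between housings (edgeR adjusted p = 0.0864), and no member was called.

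**Figure D5:**
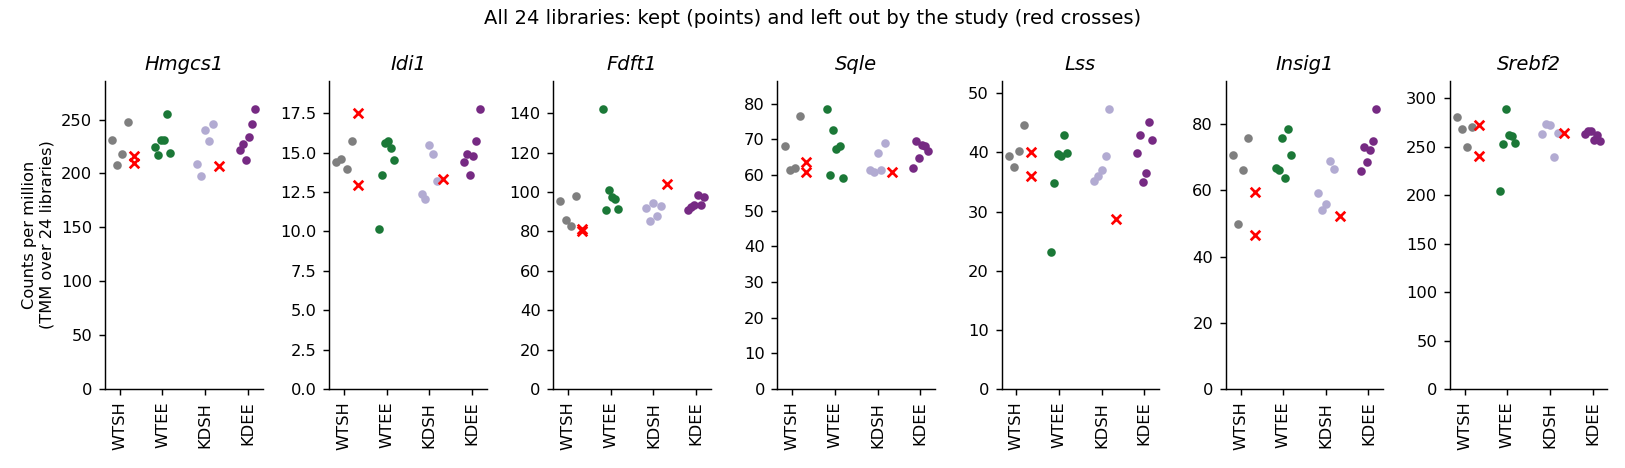
Level of each gene in all 24 libraries in CPM (TMM over 24 libraries, axes from 0), with the 21 libraries used as points and WTSH 4, WTSH 7 and KDSH 6 as red crosses. The crosses lie low for Insig1 (46.6 to 59.5) and outside the 21 points for Fdft1 in WTSH 4 and 7 (81.0 and 80.3) and for Insig1 in WTSH 7.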

How the data were processed

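Hippocampal poly(A) RNA of 24 mice was sequenced (TruSeqv2 libraries, 1 per mouse, paired reads). The authors checked reads with FastQC 0.11.3, trimmed them with Skewer, aligned them to GRCm38 with STAR 2.5 and counted uniquely aligned read pairs per gene symbol with HTSeq 0.6.1p1 without regard to strand, and deposited these raw counts without normalization. Read pairs on more than 1 gene were left uncounted, and 5 summary lines per library were kept out of library sizes. Reads from PCR copies cannot be told apart.

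Groups came from the sample labels. Samples 4, 6 and 7 were left out as in the study. Genes were filtered with edgeR's default (20187 of 49568 symbols), scaled by TMM and compared in edgeR 4.0.16 by its quasi-likelihood F test (limma 3.58.1, R 4.3.3) with 1 mean per group. Single genes were also compared by exact two-sided permutation tests of log2 CPM with a prior count of 2. Correlations used two-sided permutation p values, the smallest possible being 1e-05. Intervals are 95%. Positions and exon lengths are those of GENCODE M21 (GRCm38), in which 47206 symbols matched 1 gene. Structural RNA is a list of 1742 rRNA, snRNA and similar gene models. The tests were first checked on simulated counts and correlations. Calculations used numpy 2.4.6, pandas 2.3.3, scipy 1.17.1 and matplotlib 3.10.9.

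Alternatives were the Wald test of DESeq2 1.42.0 (the study's own test), its size factors in edgeR, no filter, a minimum of 10 counts per library, calls without a fold threshold, all 24 libraries, only the groups compared, a robust fit, the structural RNA share as a covariate and leaving out each library. For correlations they were log2(normalized count + 1), size factors, Spearman's rho, all 24 libraries, group means kept, the structural RNA share regressed out and leaving out each library. Values of the score, the gene lists and the background pairs without WTEE 10 were added after seeing the data. The members, lists and tests were chosen with earlier results of these data known. Genes named are the members, genes among the 10 with the largest r with the score and the 5 with the lowest, and at most 4 genes of each list by r or by p. Acat2 and Abcg1 were named after their values without WTEE 10 were seen, and Ctsb for its overlap with Fdft1. Some genes are not reported here.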

Additional observations from a re-analysis of the deposited data

Results flagged for a closer look

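One of the 28 sets of values, 1 for each of the 7 genes in each of the 4 groups, held a mouse far from the others by Dixon's criterion at 95%. Fdft1 in WTEE 10 (146 CPM) was separated from the next WTEE mouse by 0.804 of the whole range of its group. Chance alone flags about 1 in 20 groups. The explanation was not tested, and the same mouse lay outside the range of the other 20 for 5 of the 7 genes.

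Among the libraries the study left out, a level above every WTSH mouse that was used was seen for Idi1 in WTSH 4 (17.5 CPM against at most 15.7 CPM) and for Fdft1 in KDSH 6 (104 CPM against at most 97.7 CPM). These are values of single libraries with no replicate check.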

How the results depend on the processing

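No paired analysis was possible because the groups compared share no replicate number, each mouse having its own. No member was called in any contrast under any alternative run, including DESeq2. Of the 49 log2 fold changes of members, 30 kept their sign in every alternative and 19, mostly near 0, changed it in at least 1, and the largest absolute value in any alternative was 0.303. DESeq2 called between 0 and 118 of all genes in a contrast where edgeR called 0 or 1.

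For the covariation, the 6 alternatives other than leaving out a mouse kept the count of passing pairs within 1.5 times the 6 reported and the median r within 0.1 of it. Leaving out each mouse gave between 1 and 10 passing pairs, with 1 without KDEE 22, 10 without WTEE 10 and 2 without each of 5 others, and a median r between 0.28 and 0.52. Over these fits the r of Idi1 with Fdft1 ranged from -0.52 to 0.52, of Idi1 with Sqle from -0.18 to 0.47 and of Sqle with Lss from -0.22 to 0.55, the positive end being the fit without WTEE 10 in each case, where the sign turned. The share of genes with an r over 0.5 with the score stayed within 1.5 times its value in the 4 alternatives run. At 4 to 6 mice a group, the 95% intervals of the members' log2 differences together ran from -0.54 to 0.45 over the 7 contrasts, and apart from Insig1 in 2 contrasts each of them included 0.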
